A study of Homo sapiens with 12 samples.

Results

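RND1, LMCD1, SFN, NT5DC4 and RASSF10 are 5 genes whose level was higher in AsPC-1 cells given a p63 construct than in mock AsPC-1 cells. They were picked, out of 39099 genes in the table, from their TPM (a relative transcript abundance, scaled for length and summing to 1000000 in a library) in AsPC-1 with TAp63, with deltaNp63 or with both. The AsPC-1 values below therefore describe the choice and carry no test, whereas the PANC-1 values did not enter it and were tested. All 5 were among the 14767 genes that reached 1 TPM in at least 2 of the 12 libraries. RND1, LMCD1 and SFN would have done so in either cell line. NT5DC4 and RASSF10 passed through AsPC-1 alone, at 1 TPM or more in 3 libraries each.

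The series addressed TAp63 in pancreatic cancer, the squamous subtype and the immune surroundings of the tumour. RNA was sequenced from AsPC-1 and PANC-1, both established human pancreatic cancer lines, each as a mock control, with overexpressed TAp63 or with overexpressed deltaNp63. Every one of the 6 groups holds 2 libraries, described in the labels as biological replicates. No source says whether these came from separate cultures, so p-values measure the spread between these samples, which may be technical. The vector, its promoter, the p63 splice form, any selection and the time between transfection and harvest are not given in the sources used here. Neither are the contents of the mock control.

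TP63 makes TAp63 proteins from its upstream promoter, with the full transactivation domain, and deltaNp63 proteins from an internal promoter, without it. The DNA-binding domain is shared with p53, and deltaNp63 is the form of basal and squamous epithelium. RND1 encodes a small GTPase that stays bound to GTP and loosens actin stress fibres and cell adhesion. LMCD1, also called dyxin, is a LIM and cysteine-rich domain protein that binds GATA6 and restrains its activity. SFN encodes 14-3-3 sigma, an epithelial 14-3-3 protein that p53 induces and that holds cell cycle kinases and phosphatases in the cytoplasm. NT5DC4 belongs by sequence to the 5'-nucleotidase domain family and is little studied. RASSF10 is a Ras association domain protein of the N-terminal RASSF class and is often silenced by methylation in tumours.

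TP63 itself stood at 1.10 and 0.817 TPM in the AsPC-1 mock libraries, at 102 and 170 TPM with TAp63 and at 245 and 350 TPM with deltaNp63. In PANC-1 it stood at 0.119 and 0.0245, at 324 and 342, and at 815 and 1187 TPM in the same order. Summed TP63 thus separated construct from mock libraries, and its amount differed between the constructs and between the lines. TP63 transcripts were grouped by annotated start, which does not tell RNA of a construct from RNA of the gene's own promoters. Those with an upstream start summed to 65.7 to 101 TPM in AsPC-1 and 198 to 215 TPM in PANC-1 with TAp63. In every other group they summed to at most 0.898 TPM. Those with an internal start were at 245 TPM or more with deltaNp63. They were also at 36.5 to 127 TPM in the TAp63 libraries, nearly all on TP63-211. How reads of exons shared by TP63 transcripts were divided is not given. Each library had between 12212 and 13161 genes at 1 TPM or more. The read depth behind these relative values is unknown, and no counting interval was possible. All 7 epithelial markers (KRT8, KRT18, KRT19, EPCAM, CDH1, CLDN4, MUC1) were at 1 TPM or more in every group, summing to 7619 to 11048 TPM in AsPC-1 and 3607 to 3966 TPM in PANC-1. Of 4 mesenchymal markers (VIM, CDH2, ZEB1, FN1), 2 had a group mean of 1 TPM or more in AsPC-1 and 3 in PANC-1. They summed to 2015 to 2378 TPM in AsPC-1 and 4336 to 4986 TPM in PANC-1, mostly VIM. In the first PANC-1 mock library CDH2 was at 22.3 TPM and CDH1 at 3.51 TPM. Of 6 leukocyte markers only CD68 was at 1 TPM or more in both libraries of a group. ITGAM reached at most 1.29 TPM in a library, and PTPRC and CD3E were at or near 0. The 3 of 4 endothelial markers that had values summed to at most 0.312 TPM, and acinar and islet markers to at most 0.501 TPM. In the fibroblast list LUM stood at 224 TPM in the first AsPC-1 mock library, COL1A1 at 84.1 TPM in the first PANC-1 mock library, and DCN stayed under 1 TPM. In bulk RNA, fewer cells expressing a gene and less RNA per cell cannot be told apart.

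**Figure D1:**
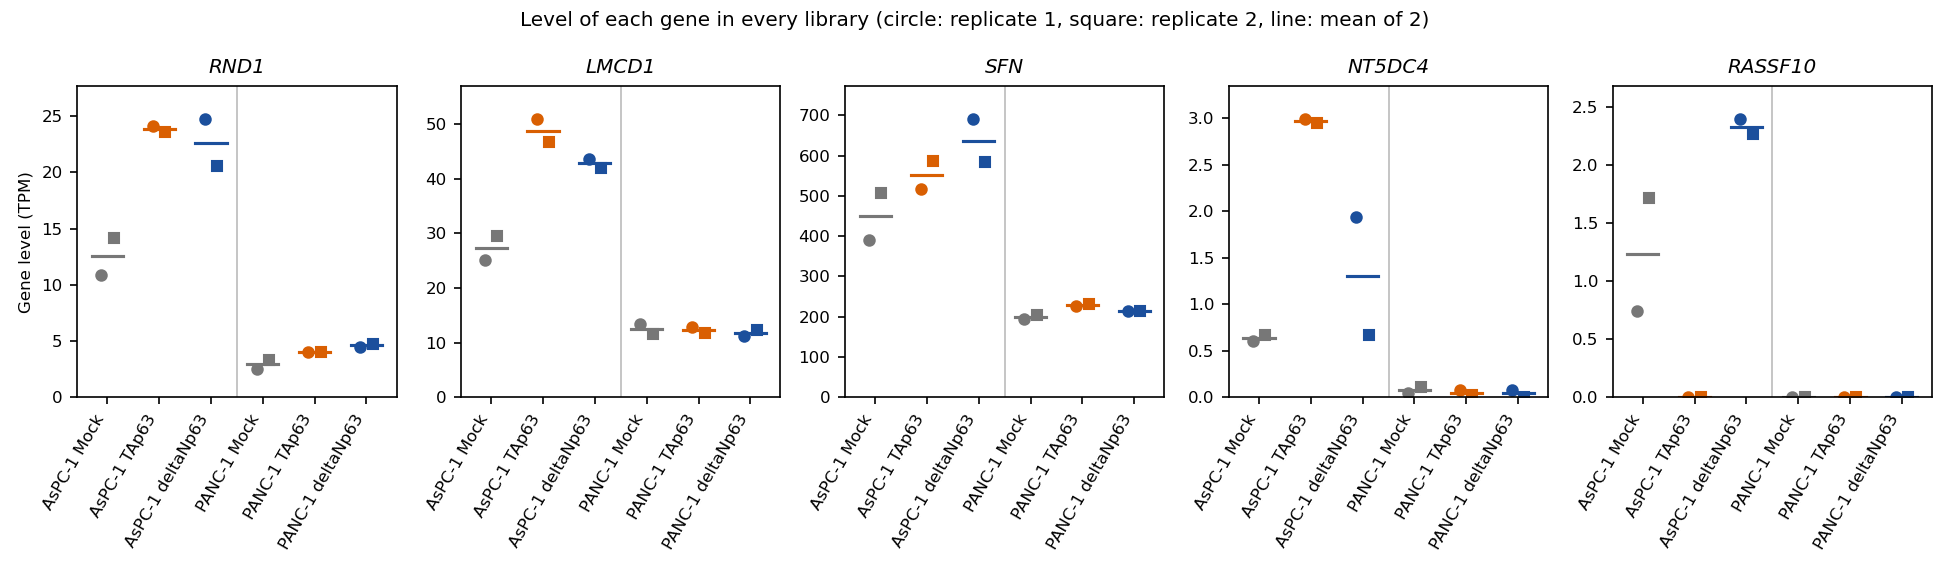
Level of RND1, LMCD1, SFN, NT5DC4 and RASSF10 in each of the 12 libraries, in TPM, 1 panel a gene with its own axis. Each point is a library, grouped by line (AsPC-1, PANC-1) and by mock, TAp63 or deltaNp63, and the short bars are the means of the 2 libraries. The p63 libraries of AsPC-1 lie above both mock libraries for each gene except RASSF10 with TAp63, which is at or near 0. For NT5DC4 the second deltaNp63 library (0.673 TPM) is level with the second mock library (0.670 TPM).

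The order of the 5 genes by length-scaled level was the same in the AsPC-1 mock libraries and in those with deltaNp63. SFN led by a wide margin, followed by LMCD1 and RND1, with RASSF10 and NT5DC4 near 1 TPM. In the mock group RASSF10 and NT5DC4 were 1.23 ± 0.685 and 0.635 ± 0.0489 TPM (SD, n = 2), and these means differed by less than the RASSF10 SD. All 5 genes had a higher mean in mock AsPC-1 than in mock PANC-1. The AsPC-1 mean was 4.26 times the PANC-1 mean for RND1, 2.25 times for SFN and 2.18 times for LMCD1.

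RND1 (ENSG00000172602, hg38 chr12:48857145-48865870, minus strand) was higher with either construct in AsPC-1, by a similar amount. The mock libraries held 10.9 and 14.2 TPM, the TAp63 libraries 24.1 and 23.6, and the deltaNp63 libraries 24.7 and 20.5. All 4 p63 libraries were above both mock libraries, and the TAp63 and deltaNp63 values overlapped. The mean with TAp63 was 1.90 times the mock mean and that with deltaNp63 1.80 times. On the log2(TPM + 1) scale, which understates changes of low genes, RND1 was higher by 0.89 with TAp63, 44th among 14767 genes ranked from the largest positive difference, and by 0.81 with deltaNp63, where it was 82nd. The TAp63 value was 0.08 above the deltaNp63 value, a gap that turned to -0.050 without the second deltaNp63 library.

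One transcript carried this level. RND1-201, the full-length coding transcript, held 95.5% to 98.4% of RND1 TPM in the AsPC-1 libraries. In PANC-1 its share ranged from 71.6% to 90.2%, and RND1-204, annotated as a target of nonsense-mediated decay, held up to 23.4%.

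LMCD1 (ENSG00000071282, hg38 chr3:8501807-8574668, plus strand) behaved like RND1 in AsPC-1 but at a higher level. It stood at 25.2 and 29.5 TPM in mock libraries, 50.9 and 46.7 with TAp63, and 43.7 and 42.1 with deltaNp63. The 3 groups did not overlap, with TAp63 highest. The mean was 1.78 times mock with TAp63 and 1.57 times mock with deltaNp63, which are log2 differences of 0.82 (rank 54) and 0.63 (rank 161). LMCD1-201, the main coding transcript, held 87.7% to 93.8% of LMCD1 TPM in AsPC-1. LMCD1-AS1, a lncRNA on the opposite strand whose span covers LMCD1, stood at 1.43 to 2.78 TPM across the 6 AsPC-1 libraries, far under LMCD1. It did not pass limma's test with TAp63 (log2 difference 0.17, limma adjusted p 0.860).

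SFN (ENSG00000175793, hg38 chr1:26863149-26864456, plus strand) was by far the most abundant of the 5 and had the smallest relative difference. Its single annotated transcript gave 390 and 507 TPM in mock AsPC-1, 517 and 587 with TAp63, and 690 and 584 with deltaNp63. The second mock library and the first TAp63 library lay close together, and the TAp63 and deltaNp63 values overlapped. The means were 1.23 and 1.42 times mock, with log2 differences of 0.31 (rank 581) for TAp63 and 0.51 (rank 311) for deltaNp63. Without the first mock library the TAp63 difference was 0.12 and the deltaNp63 difference 0.32. Without the second mock library they were 0.50 and 0.70.

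The 250 bases upstream of the RefSeq start of SFN and LMCD1 are shown because both genes were higher with both constructs and each window holds a match to a motif searched. They come from RefSeq (GRCh38.p14), plus strand, 5′ to 3′, at chr1:26862899-26863148 and chr3:8501573-8501822. Capitals mark the match, TGATTCA in SFN (bases -170 to -164 from the start) and TGACGTCA in LMCD1 (bases -183 to -176). The LMCD1 start used is that of LMCD1-201 (8501823), so the last bases of its window lie inside the GENCODE span of the gene, which begins at 8501807.
SFN: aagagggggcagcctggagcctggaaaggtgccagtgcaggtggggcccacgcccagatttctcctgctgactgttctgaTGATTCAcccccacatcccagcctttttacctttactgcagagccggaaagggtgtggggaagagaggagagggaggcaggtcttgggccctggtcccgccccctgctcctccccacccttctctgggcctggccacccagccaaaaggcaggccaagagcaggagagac
LMCD1: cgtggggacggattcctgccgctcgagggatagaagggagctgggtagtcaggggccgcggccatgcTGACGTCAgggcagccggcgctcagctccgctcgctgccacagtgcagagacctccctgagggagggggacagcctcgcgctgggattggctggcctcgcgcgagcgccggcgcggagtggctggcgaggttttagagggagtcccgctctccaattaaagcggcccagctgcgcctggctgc

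RefSeq promoter windows were matched for 3 of the 5 genes: SFN, LMCD1 and NT5DC4, the last with a pair of windows. Both strands of each 300-base window, from 250 bases before to 50 after the start, were searched for 4 motifs. TGANTCA, the letters that AP-1 factors bind, was present in 7.71% of all 35116 windows and in that of SFN. TGACGTCA, the cAMP response element, was present in 1.85% of windows and in that of LMCD1. The decameric p53 family site occurred in 6.63% of all windows and a pair of CATG cores 6 bases apart, as adjoining p53 family sites have, in 0.373%. The pair of cores can overlap the decamer, and TGANTCA and TGACGTCA cannot contain each other. Neither p53 family motif was found in the windows of SFN, LMCD1 or NT5DC4. A match is only a run of letters, and sites outside these windows were not searched.

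NT5DC4 (ENSG00000144130, hg38 chr2:112721020-112742879, plus strand) had the largest log2 difference of the 5 with TAp63, and that difference lay on 1 short transcript. Summed over transcripts the gene stood at 0.601 and 0.670 TPM in mock AsPC-1, 2.99 and 2.95 with TAp63, and 1.94 and 0.673 with deltaNp63. Both TAp63 libraries were clear of mock, while the second deltaNp63 library was level with the higher mock library. The mean was 4.68 times mock with TAp63 and 2.06 times with deltaNp63, and the log2 differences were 1.28 (rank 14) and 0.44 (rank 462). The deltaNp63 value came from 1 library. It was 0.033 without the first deltaNp63 library and 0.85 without the second.

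Of the annotated coding transcripts, NT5DC4-201 had values here and differed little between groups. It read 0.428 and 0.446 TPM in mock, 0.478 and 0.402 with TAp63, and 0.555 and 0.488 with deltaNp63. NT5DC4-205 (ENST00000491170), a 183-base transcript with no defined coding sequence, was listed at 0 in both mock libraries. It was at 2.25 and 2.42 TPM with TAp63, at 1.13 and 0 with deltaNp63, and at 0 in all 6 PANC-1 libraries. TPM is scaled for length, so on so short a transcript a given TPM stands for fewer reads than on a longer one. The number of reads behind these values is unknown. With only the coding transcripts that have values, NT5DC4 no longer reached the 1 TPM filter. A gene at 0 in a table without counts may also be a failed estimate, so no fold is given for NT5DC4-205. GENCODE v44 also annotates NT5DC4-207, a coding transcript whose exons hold all 183 bases of NT5DC4-205. NT5DC4-207 has no row of its own among the values used here, so RNA of NT5DC4-205 and of NT5DC4-207 cannot be told apart.

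NT5DC4-205 joins a 48-base exon (hg38 chr2:112729657-112729704) to a 135-base exon (chr2:112738913-112739047). Its first 69 bases are shown, 5′ to 3′ on the plus strand, since the values of NT5DC4 turn on this transcript and they span its splice junction. Capitals mark the first 21 bases of the second exon. The same junction is annotated in NT5DC4-207.
NT5DC4-205: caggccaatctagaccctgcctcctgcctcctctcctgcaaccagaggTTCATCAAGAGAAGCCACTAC

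All 135 bases of that second exon lie opposite an exon of CKAP2L, a mitotic spindle gene on the minus strand (CKAP2L-201, chr2:112736349-112739048). CKAP2L was at 24.3 and 21.5 TPM in mock AsPC-1, 18.7 and 20.8 with TAp63, and 18.5 and 19.5 with deltaNp63, so all 4 p63 libraries were below both mock libraries. It did not pass the test with TAp63 (log2 difference -0.20, limma adjusted p 0.378). The library kit marks strand, per the labels, but no source says whether the assignment of reads used it. Without strand, reads of the shared exon cannot be told apart, and the part of CKAP2L in the NT5DC4 values was not tested.

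**Figure D2:**
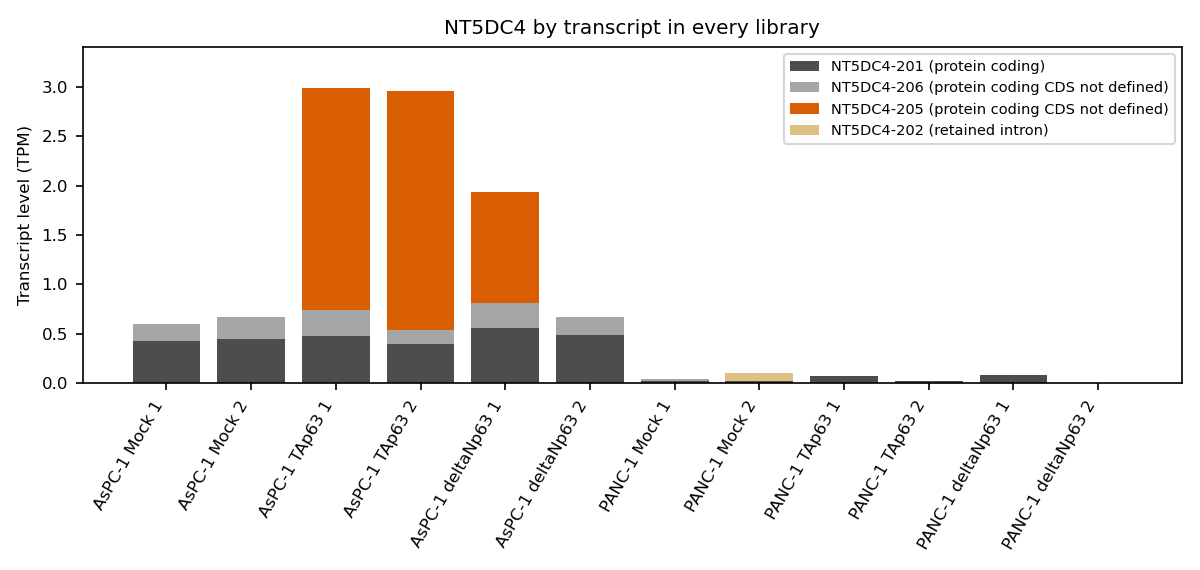
TPM of the NT5DC4 transcripts in each AsPC-1 and PANC-1 library, drawn as stacked bars from 0, 1 bar a library. NT5DC4-205 is present only in both TAp63 libraries and the first deltaNp63 library of AsPC-1, at 2.25, 2.42 and 1.13 TPM, while NT5DC4-201 stays between 0.402 and 0.555 TPM in AsPC-1.

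RASSF10 (ENSG00000189431, hg38 chr11:13009316-13012119, plus strand) was higher with deltaNp63 but not with TAp63, so its description as a gene higher with p63 holds for deltaNp63 alone. Its single transcript stood at 0.746 and 1.71 TPM in mock AsPC-1 and at 2.39 and 2.27 TPM with deltaNp63. With TAp63 it was listed at 0 and 0.00309 TPM, below both mock libraries. No fold against that group is given, since values at 0 may be failed estimates. The deltaNp63 mean was 1.89 times mock, a log2 difference of 0.61 (rank 184). The mock libraries were far apart, and the difference was 0.29 without the first of them and 0.93 without the second.

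Across all 14767 genes the median log2 difference in AsPC-1 was -0.076 with TAp63 and -0.12 with deltaNp63. Relative to these medians the TAp63 differences were 0.96 for RND1, 0.89 for LMCD1, 0.38 for SFN and 1.36 for NT5DC4. With deltaNp63 they were 0.93, 0.75, 0.63 and 0.56 in the same order, and 0.73 for RASSF10. The 5th and 95th percentiles of all genes were -0.51 and 0.28 with TAp63 and -0.66 and 0.35 with deltaNp63. Each positive difference of the 5 genes lay above the 95th percentile, and RASSF10 with TAp63 lay below the 5th. With TAp63, 4 of the 5 genes had both construct libraries above both mock libraries, as had 11.2% of all genes. RASSF10 had both below, as had 35.4%. With deltaNp63 it was 5 of 5 against 11.1% of genes, and with both constructs 4 of 5 against 5.28%. For NT5DC4 this rested on 0.673 TPM in the second deltaNp63 library beside 0.670 TPM in the second mock library. The AsPC-1 contrasts chose the genes, so nothing is read from the counts. At an adjusted p under 0.05, limma called 0.0271% of all genes higher with TAp63 and 0.637% with deltaNp63, and 0.609% and 6.51% lower.

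**Figure D3:**
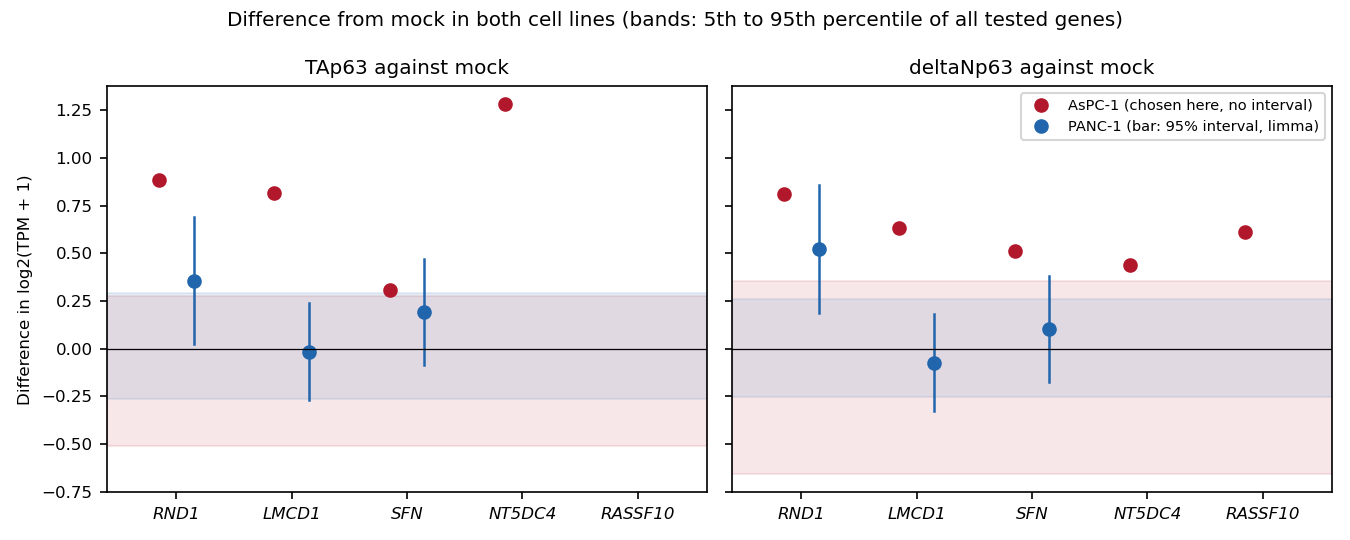
Log2 difference of TPM + 1 from mock for the 5 genes with TAp63 (left) and deltaNp63 (right), with AsPC-1 in red and PANC-1 in blue, lines for the PANC-1 95% intervals and shaded bands for the 5th to 95th percentile of all 14767 genes in the line of the same colour. All AsPC-1 points drawn sit above the AsPC-1 band, and of the PANC-1 points RND1 alone sits above its band. RASSF10 with TAp63, and NT5DC4 and RASSF10 in PANC-1, are not drawn because of their values at or near 0.

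In PANC-1, which did not enter the choice, none of the 3 genes that could be tested was called in any of 3 contrasts. The spread behind these tests and their intervals was estimated over all 12 libraries, so those of AsPC-1 entered it. limma called 0.00677% of all genes with TAp63 against mock, 0.0406% with deltaNp63 against mock and 0.0271% with TAp63 against deltaNp63, which are 1, 6 and 4 genes. At an unadjusted p under 0.05 the counts were 503, 345 and 437, and of the 3 genes only RND1 was among them, in both contrasts against mock. RND1 came nearest, SFN leaned the same way by less, and LMCD1 did not.

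RND1 was low in PANC-1, at 2.54 and 3.34 TPM in mock, 4.04 and 3.99 with TAp63, and 4.49 and 4.77 with deltaNp63. All 4 p63 libraries were above both mock libraries, and the groups did not overlap. The log2 difference was 0.36 with TAp63 (SE 0.15, 95% interval 0.021 to 0.69, unadjusted p 0.0393 and adjusted p 1 in limma). With deltaNp63 it was 0.52 (interval 0.19 to 0.86, unadjusted p 0.00605 and adjusted p 1 in limma). Mean TPM was 1.37 and 1.58 times mock. With protein-coding transcripts only, the log2 difference was 0.20 with TAp63 and 0.51 with deltaNp63. RND1-204, which that setting leaves out, was at 0 and 0.564 TPM in mock. It was at 0.946 and 0.579 TPM with TAp63 and at 0.413 and 0.387 TPM with deltaNp63. TAp63 minus deltaNp63 was -0.17 (interval -0.50 to 0.17, limma adjusted p 1).

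SFN in PANC-1 was 194 and 205 TPM in mock, 225 and 230 with TAp63, and 214 and 214 with deltaNp63. Its 4 p63 libraries again lay above both mock libraries. The log2 difference was 0.19 with TAp63 (SE 0.124, interval -0.087 to 0.47, limma adjusted p 1) and 0.10 with deltaNp63 (interval -0.18 to 0.38, limma adjusted p 1). TAp63 minus deltaNp63 was 0.089 (interval -0.19 to 0.37, limma adjusted p 1). The log2 SD of SFN was 0.13 to 0.27 in the AsPC-1 groups and 0.00059 to 0.059 in the PANC-1 groups. These SFN intervals thus rest largely on AsPC-1 spread. In a limma model of the PANC-1 libraries alone, SFN was again not called (adjusted p 0.608 with TAp63).

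LMCD1 in PANC-1 was 13.5 and 11.6 TPM in mock, 12.9 and 11.8 with TAp63, and 11.3 and 12.4 with deltaNp63, and all groups overlapped. The log2 difference was -0.017 with TAp63 (SE 0.114, interval -0.27 to 0.24, limma adjusted p 1) and -0.075 with deltaNp63 (interval -0.33 to 0.18, limma adjusted p 1). TAp63 minus deltaNp63 was 0.058 (interval -0.20 to 0.31, limma adjusted p 1). Each of these signs turned when 1 library was left out.

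RND1 and SFN, 2 of the 3 testable genes, were thus higher in every p63 library of PANC-1 than in both mock libraries. Of the 13518 genes at 1 TPM in at least 2 PANC-1 libraries, 22.6% did so with TAp63, 10.5% with deltaNp63 and 5.64% with both. Over all 14767 genes the shares were 22%, 10.8% and 5.61%. NT5DC4 was at 0.0462 and 0.106 TPM in PANC-1 mock, 0.0761 and 0.0252 with TAp63, and 0.0828 and 0 with deltaNp63. RASSF10 was listed at 0 in all 6 PANC-1 libraries. Neither was tested in PANC-1, since both stayed far below 1 TPM there.

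The AsPC-1 difference exceeded the PANC-1 difference by 0.83 for LMCD1 with TAp63 and by 0.71 with deltaNp63. For RND1 the gaps were 0.53 and 0.29, and for SFN 0.12 and 0.41. These gaps contain the contrast that chose the genes and are given without a test. TP63 RNA was higher in PANC-1 than in AsPC-1 with each construct. The part of TP63 level in these gaps was not tested. The SFN gap with TAp63 rests on the first AsPC-1 mock library, without which the AsPC-1 difference is 0.12 beside 0.19 in PANC-1.

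The families and pathways around the 5 genes were followed in 7 lists holding 135 other genes, of which 119 could be tested. None was called by limma with TAp63 in AsPC-1, where it called 0.637% of all genes, and 21 list genes (17.6%) had an unadjusted p under 0.05 beside 15.1% of all genes. In PANC-1 limma called 0 list genes with either construct, and 4 with TAp63 (3.36%) and 2 with deltaNp63 (1.68%) had an unadjusted p under 0.05, beside 3.41% and 2.34% of all genes. With deltaNp63 in AsPC-1, 9 of 119 list genes were called, 3 higher and 6 lower, against 7.14% of all genes, 0.637% higher and 6.51% lower. The median log2 difference of the 119 genes was -0.012 with TAp63 and -0.10 with deltaNp63, beside all-gene medians of -0.076 and -0.12. The count of 9 depended on single libraries: it was 1 without the first deltaNp63 library, 37 without the second, 0 without the first mock library and 1 without the second. It also moved with scaling, since after median centring 6 were called, 5 higher and 1 lower, and after quantile normalization 1, which was higher. Of the 9, FHL2, CCN2 and PHLDA3 were still called after median centring, and CCN2 after quantile normalization. A model of the AsPC-1 libraries alone called 0.

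Among 20 tested genes of the Rnd GTPase list, which holds relatives and partners of RND1, limma called none with either construct in either line. With deltaNp63 in AsPC-1, 6 (30.0%) had an unadjusted p under 0.05 beside 29.7% of all genes, and with TAp63 none had. RND3, the close paralogue of RND1 and likewise a stress fibre antagonist, was level at 13.2 ± 1.33 TPM in mock AsPC-1, 13.2 ± 1.21 with TAp63 and 12.3 ± 1.37 with deltaNp63 (SD, n = 2). Its differences were -0.0040 and -0.094 (limma adjusted p 1 and 0.679). RND2, the remaining Rnd gene, stayed below 1 TPM in all 12 libraries.

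The LMCD1 list holds LIM domain relatives and GATA partners, with 16 tested genes. With deltaNp63 in AsPC-1, 1 was called higher and 2 lower. FHL2, a LIM-only cofactor of transcription and adhesion, rose from 365 ± 13.5 to 454 ± 16.9 TPM (log2 difference 0.31, SE 0.069, limma adjusted p 0.0366), and its 452 ± 1.53 TPM with TAp63 was not called (0.31, limma adjusted p 0.0988). FHL3, another LIM-only gene, fell by 0.63 (limma adjusted p 0.0490), as did PRICKLE3, a planar polarity LIM protein, by 0.63 (limma adjusted p 0.0299). TES, which shares the cysteine-rich and LIM layout of LMCD1, was at 297 and 323 TPM in mock and at 362 to 425 TPM in the 4 p63 libraries. Those values did not overlap, but TES was not called (0.35 with TAp63, 0.34 with deltaNp63, limma adjusted p 0.184 and 0.0736). GATA6, the factor that LMCD1 binds, was at 56.6 ± 11.6 TPM in AsPC-1 mock and 0.582 ± 0.194 TPM in PANC-1 mock, and was not called with either construct in AsPC-1 (limma adjusted p 0.654 and 0.765).

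The 14-3-3 list holds the other family members and the cell cycle proteins that SFN binds, with 19 tested genes. In AsPC-1, 6 of them (31.6%) had an unadjusted p under 0.05 with deltaNp63 and 2 (10.5%) with TAp63. The all-gene shares were 29.7% and 15.1%. CDC25A, a phosphatase that promotes the S phase, fell by 0.67 with deltaNp63 in AsPC-1 (limma adjusted p 0.0169), from 4.99 ± 0.307 to 2.77 ± 0.179 TPM, and was the only one called. Of the other 6 family genes, YWHAZ was the most abundant and had the largest difference. It read 1986 and 2285 TPM in mock, 2700 and 2463 with TAp63, and 3334 and 2376 with deltaNp63, without passing the test (0.28 and 0.40, limma adjusted p 0.392 and 0.0951). YWHAB, YWHAE, YWHAG, YWHAH and YWHAQ differed by -0.11 to 0.21.

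None of 9 tested 5'-nucleotidase genes was called by limma with either construct in AsPC-1, and 2 (22.2%) had an unadjusted p under 0.05 with deltaNp63 beside 29.7% of all genes. NT5DC1, NT5DC2 and NT5DC3, the family members nearest in name to NT5DC4, differed by -0.23 to 0.15.

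The RASSF and Hippo list had 22 tested genes. In AsPC-1, 9 of them (40.9%) had an unadjusted p under 0.05 with deltaNp63 and 7 (31.8%) with TAp63. The all-gene shares were 29.7% and 15.1%. With deltaNp63 limma called 1 higher and 2 lower, beside 0.637% and 6.51% of all genes. WWTR1 and YAP1, the paired coactivators that the Hippo pathway restrains, fell by 0.55 (limma adjusted p 0.0169) and 0.32 (limma adjusted p 0.0422). CCN2, a well known target of both, rose by 0.55 (limma adjusted p 0.0398), from 24.7 and 30.5 to 38.4 and 43.1 TPM. After median centring the YAP1 difference was -0.11 (limma adjusted p 0.344). No RASSF relative was called. RASSF1 differed by 0.29 and 0.21 with TAp63 and deltaNp63, RASSF3 by -0.25 and -0.33, and RASSF7 by -0.18 and -0.25. RASSF4 and RASSF8 were under 1 TPM in AsPC-1 mock, while RASSF8 was at 27.6 ± 1.63 TPM in PANC-1 mock. RASSF6 was at 15.2 and 14.9 TPM in mock and at 31.9 and 14.6 TPM with deltaNp63, so its difference of 0.50 rested on 1 library.

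Of 16 tested squamous genes and p63 targets, S100A2, a calcium-binding protein of basal epithelium, was the one called. With deltaNp63 it was at 144 and 66.7 TPM against 38.1 and 51.1 TPM in mock (1.13, SE 0.285, limma adjusted p 0.0468). Of 20 tested p53 family targets, PHLDA3, a repressor of AKT, fell by 0.93 with deltaNp63 (limma adjusted p 0.0222), from 5.47 ± 0.851 to 2.42 ± 0.590 TPM. In AsPC-1, 3 squamous list genes (18.8%) and 9 p53 family targets (45.0%) had an unadjusted p under 0.05 with deltaNp63. With TAp63 they were 2 (12.5%) and 4 (20.0%). The all-gene shares were 29.7% with deltaNp63 and 15.1% with TAp63. The first deltaNp63 library of AsPC-1 was also the one with high NT5DC4, RASSF6 and S100A2. Its epithelial marker sum was 7619 TPM against 10452 TPM in the second. KRT8 (2034 against 3609 TPM), KRT18, KRT19 and MUC1 were lower in the first library, while EPCAM (1384 against 1330 TPM), CDH1 and CLDN4 were higher. The part of these marker differences in those results was not tested. For each of the 9 list genes called with deltaNp63, the highest limma adjusted p over 14 alternatives was 0.363 or, for S100A2, 0.372. Each was called in 3 to 7 of the 14, and the sign of each difference held in all 14.

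**Figure D4:**
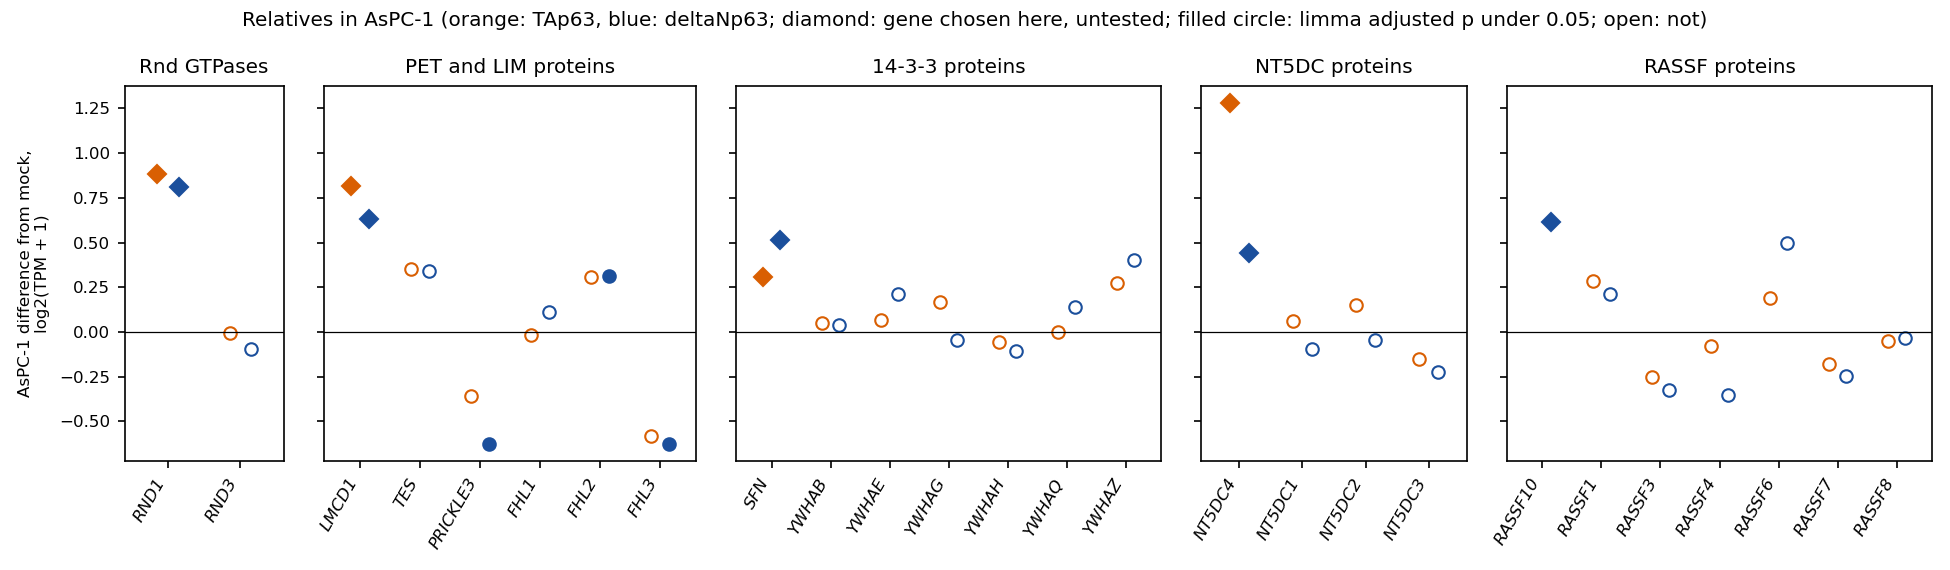
Log2 difference of TPM + 1 from mock in AsPC-1 for the relatives of RND1, LMCD1, SFN, NT5DC4 and RASSF10, with TAp63 in orange and deltaNp63 in blue, filled circles for an adjusted p under 0.05 and open circles for the rest. The 5 chosen genes are untested diamonds, RASSF10 with TAp63 is not drawn, and FHL2 (0.31), FHL3 (-0.63) and PRICKLE3 (-0.63) with deltaNp63 are the relatives that passed the test.

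Genes whose level followed each of the 5 most closely were ranked by Pearson's r of log2(TPM + 1) over the 6 AsPC-1 libraries. The libraries share their groups and scaling, so r is a description with no p. For RND1 they were FHL2 (r = 0.990), UBA6 (0.990) and GMEB1 (0.988). FHL2 is also a LIM gene of the LMCD1 list. For LMCD1 they were STX5 (0.998), GEM (0.993) and ARL14 (0.987). GEM, a GTP-binding protein, was at 62.1 and 72.1 TPM in mock and 92.4 to 103 TPM in the 4 p63 libraries. For SFN they were EGR2 (0.992), BZW1P2 (0.986) and ETS1 (0.974). For NT5DC4 they were SEC61B (0.989), ENSG00000258749 (0.979) and RAPGEF2 (0.979). For RASSF10 they were GMDS (0.991), LINC02693 (0.991) and PLCG2 (0.983), whose TPM was 0 in both TAp63 libraries. With 6 points high values are common: 39 genes exceeded r = 0.95 for RND1, 27 for LMCD1, 26 for SFN, 12 for NT5DC4 and 15 for RASSF10, of 14510 compared.

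Over all 12 libraries the difference between the lines dominates, and 688, 760 and 1223 genes exceeded r = 0.95 for RND1, LMCD1 and SFN. The closest were GOT1, ENTPD4 and TLCD2 for RND1, CARNS1, FAM86DP and GALNT9-AS1 for LMCD1, and YJU2B and STK19 for SFN. For NT5DC4 the closest was ENSG00000249942 (0.968), followed by ARHGEF2-AS1 and ENSG00000259038. For RASSF10 they were ENSG00000291038 (0.908), ENSG00000236283 and SDR16C5.

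The genes next to the 5 on the chromosome did not pass the test with TAp63 or deltaNp63 in AsPC-1 where they were tested. DDX23, 4303 bases from RND1, was at 48.4 and 47.1 TPM in mock and 32.4 to 45.4 TPM in the p63 libraries (limma adjusted p 0.510 and 0.0829). SSUH2, beside LMCD1, was at 7.01 and 8.44 TPM in mock, 11.1 and 11.9 with TAp63, and 20.0 and 6.76 with deltaNp63 (limma adjusted p 0.540 and 0.348). GRM7, on the other side of LMCD1, was at or near 0. ZDHHC18 and GPN2, which flank SFN, differed by -0.13 and -0.20 with TAp63 (limma adjusted p 0.623 and 0.387). SLC20A1 and IL1A flank NT5DC4, at 0.20 and 0.16 with TAp63 (limma adjusted p 0.385 and 0.794). TEAD1 and BMAL1 flank RASSF10, at -0.050 and 0.51 with deltaNp63 (limma adjusted p 0.937 and 0.205).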

How the data were processed

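The authors deposited a matrix of TPM values for 153329 Ensembl transcripts in 12 libraries. Per the labels' protocols, RNA was column-purified and made into stranded mRNA libraries. The quantifier, build and annotation are not given in the sources used here.

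Transcripts were paired with genes through GENCODE v44 (hg38), which matched 139819 (91.2%, holding 89.6% to 90.5% of a library's TPM), and summed to 39099 genes. The 14767 genes that reached 1 TPM in 2 or more of 12 libraries were analysed as log2(TPM + 1). One limma 3.58.1 model (R 4.3.3, lmFit, contrasts, eBayes with trend) with 6 group means left 6 residual degrees of freedom. P-values were two-sided, adjusted by Benjamini-Hochberg over 14767 genes, with a threshold of 0.05, and intervals are 95% intervals of the fit. The fit was tested on simulated data. The changes added there were larger than the PANC-1 differences reported here, so that test says nothing about differences of this size. Figures were drawn with matplotlib 3.10.9.

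The 5 genes and the 7 lists were chosen with earlier results of these data known, and AsPC-1 contrasts of the 5 genes carry no test. Named besides them were relatives, overlapping and flanking genes, the 3 genes of highest r over 6 and over 12 libraries, and up to 3 called genes per list and contrast. The alternatives were limma without trend, quantile normalization, median centring, every gene kept, a minimum mean of 5 TPM, a pseudocount of 0.1, only the groups compared, only 1 cell line, a replicate block, protein-coding transcripts only, and leaving out each replicate. With TPM, the planned count test was replaced by limma. One gene that this rule names is not reported here.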

Additional observations from a re-analysis of the deposited data

How the results depend on the processing

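The 3 counts of 0 called members in PANC-1 stayed at 0 in all 30 other settings and in all 12 fits that left out 1 library. In the fit with the replicate number as a block the count of called members was 0 in each of the 3 contrasts as well. Numbers were not treated as pairing samples, since the labels do not say what a replicate number shares. Deviations of same-numbered libraries correlated at -0.094 to 0.29 between groups of a line.

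For list genes called with deltaNp63 in AsPC-1, 9 in the reported fit, the count was 4 without the trend, 1 after quantile normalization, 2 with no low-value filter, 15 at a mean of at least 5 TPM, 18 with the replicate block, and 0 with only the groups compared or only the 6 libraries of the line. Leaving out 1 library gave 0 to 37, and 0 to 1 with TAp63. The cause was not tested. Over all genes, calls with deltaNp63 split into 94 higher and 961 lower, 249 and 170 after median centring, and 51 and 148 after quantile normalization. Median centring moved the median of all genes from -0.12 to 0.088, and quantile normalization to 0.

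Signs turned for RND1, TAp63 against deltaNp63 in AsPC-1 (-0.050 without the second deltaNp63 library), and for LMCD1 in PANC-1. There LMCD1 with TAp63 was 0.085 without the first mock library and 0.040 without the second TAp63 library, with deltaNp63 0.027 without the first mock library, and TAp63 minus deltaNp63 -0.0019 without the first deltaNp63 library. The full ranges were -0.12 to 0.085, -0.18 to 0.027 and -0.0019 to 0.12, and -0.050 to 0.21 for RND1.

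A pseudocount of 0.1 took NT5DC4 with TAp63 in AsPC-1 from 1.28 to 2.06 and RASSF10 with deltaNp63 from 0.61 to 0.97. Neither gene has a value at a mean of at least 5 TPM. In PANC-1, the RND1 difference ranged over 0.21 to 0.50 with TAp63 and 0.38 to 0.67 with deltaNp63 when 1 library was left out. With protein-coding transcripts only it was 0.20 and 0.51. Depth is unknown, so low values carry an error that only the 2 libraries of a group show.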
